A study of Capra hircus with 3 samples.

Results

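The genes described here are 10 members of the NOTCH signalling pathway in single cells of the goat (Capra hircus) fetal gonad, read across cell classes and across 3 libraries. They are the ligands JAG1, JAG2 and DLL4, the receptors NOTCH1, NOTCH2 and NOTCH3, and the target genes HES1, HEY1, HEY2 and HEYL. They were chosen by gene symbol, and all 10 were present among the 27271 features of the deposited matrices. The samples were 3 suspensions of goat fetal testis labelled male, taken at the embryonic stages E85, E105 and E125 after enzyme digestion and profiled on the 10x Genomics droplet platform. Each stage had 1 library, no treatment or allele was labelled, and the breed and the number of fetuses per library were not given. No comparison between libraries therefore has a replicate, and no p-value is given.

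NOTCH receptors are membrane proteins that bind ligands of the Jagged (JAG) and Delta-like (DLL) families on a neighbouring cell. Binding lets the protease ADAM10 and then gamma-secretase cut the receptor, and the freed intracellular part enters the nucleus, joins the DNA-binding protein RBPJ and its co-activator of the MAML family, and switches on repressors of the HES and HEY families. In growing vessels JAG1 on endothelial cells and NOTCH3 on mural cells (pericytes and smooth muscle around the vessel) are a well known pair of signals. NOTCH activity favours arterial over venous identity. In the testis the pathway is known for signalling between germ cells and the Sertoli cells that surround them, and for holding back differentiation of Leydig cell progenitors in the stroma.

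The libraries held 40741902 to 49692252 unique molecular identifiers (UMIs, counted RNA molecules). Of 7478, 8520 and 8346 barcodes at E85, E105 and E125, 6328, 7069 and 7319 were kept, with no fewer than 1000 UMIs and 500 genes and with mitochondrial UMIs at or under 20%. Between 9 and 14 barcodes were shared by any pair of libraries. The library labelled E125 went against its label of testis: the Sertoli hormone gene AMH stood at 1365, 3690 and 31.1 CPM (UMIs of the gene scaled to a total of 1000000) in the E85, E105 and E125 libraries, while the oocyte genes ZP3 (1.43, 4.12 and 2081 CPM) and FIGLA (1.15, 0.295 and 774 CPM) were high in the last alone. SRY had 5, 5 and 0 UMIs. It is called the library labelled E125 throughout, and its values stand beside the others as those of a library whose cells differ, not as a later stage of the same tissue.

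Cells were gated by class from marker genes that hold no member. A gated class is a range along a marker score and not a proven cell type. The endothelial gate took 307, 269 and 750 cells in the E85, E105 and E125 libraries, the mural gate 95, 111 and 189, the Sertoli gate 2475, 1988 and 31, and the stromal gate 1373, 2677 and 2655. Germ cells numbered 201 and 70 at E85 and E105, and the library labelled E125 held 88 oocyte-gated and 466 pregranulosa-gated cells (the supporting cells of the ovary). The edge of the mural gate was crowded: 53, 46 and 77 of its cells carried exactly the 3 markers it required, against 12, 8 and 28 for the endothelial gate. Of the mural-gated cells, 57.9%, 56.8% and 63.0% fell in the RGS5-led mural cluster of an unsupervised clustering, and the mural marker STEAP4 had no UMI in the class. The endothelial cells came mostly from cluster 10, led by PNOC, EDN1 and IL33, at E85 (274 of 307 cells) and E105 (236 of 269), and mostly from cluster 30, led by CA4, SOX18 and LMO2, in the library labelled E125 (593 of 750). LYVE1 and CCL21, genes of lymphatic vessels, were among the leading genes of the endothelial class in every library. Levels below are CPM of the summed class, with exact Poisson 95% intervals. Ratios carry exact 95% intervals, and all of these cover counting error only. A gene is called past 2-fold where the ratio is at least 2 or at most 0.5 with at least 20 UMIs over both sums.

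**Figure D1:**
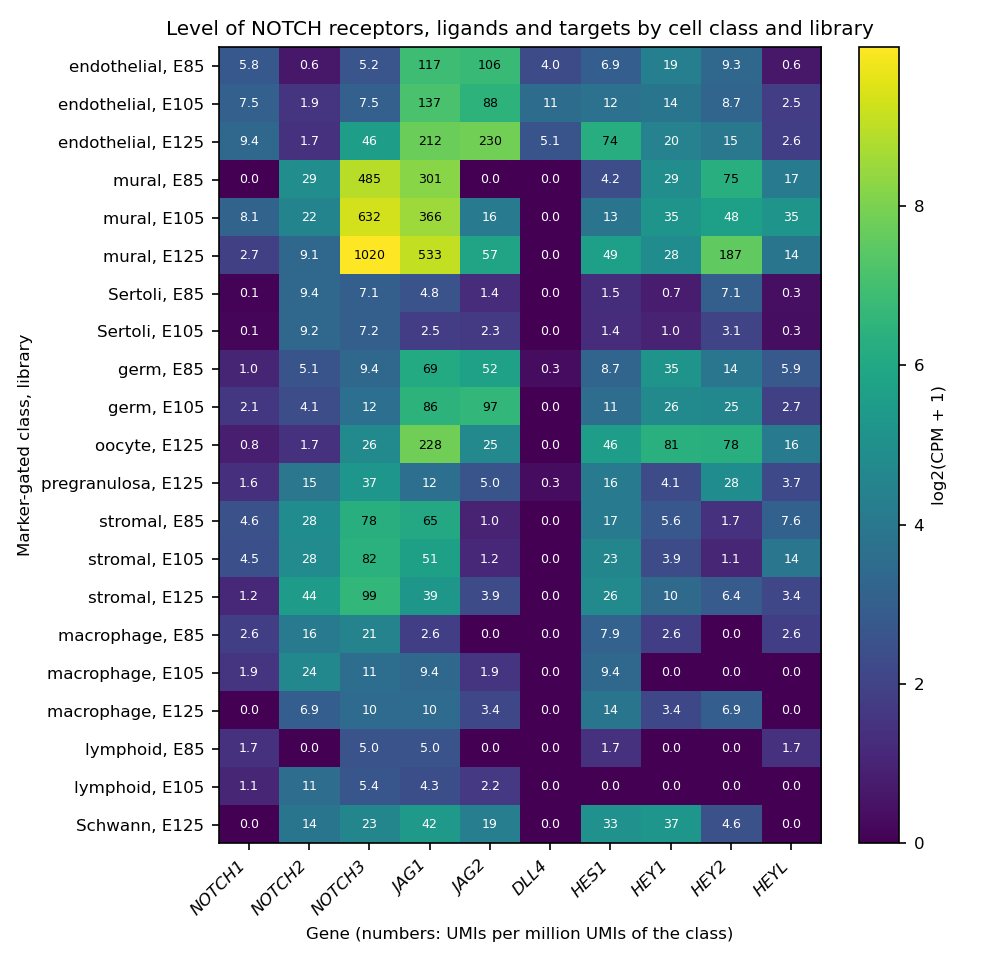
Levels of the 10 genes (columns) in 21 sums of a class in a library (rows). Colour is log2(CPM + 1) and the printed numbers are CPM; NOTCH3 and JAG1 are highest in the mural-gated cells of each library, DLL4 in the endothelial-gated cells, and Sertoli-gated cells have no member above 10 CPM.

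Among the ligands, JAG2 separated the endothelium from the stroma by the widest measured ratio, and DLL4 was found almost only in the endothelium. JAG2 stood at 106 CPM (184 UMIs) at E85, 88.2 CPM (142 UMIs) at E105 and 229.7 CPM (1221 UMIs) in the library labelled E125 in endothelial-gated cells, against 0.995, 1.24 and 3.88 CPM in stromal-gated cells of the same libraries. The ratios were 107 (36.0 to 524), 71.4 (35.3 to 169) and 59.3 (42.8 to 84.6). Germ cells at E105 had as much JAG2 as the endothelium (97.4 CPM, 82.1 to 115, against 74.3 to 104), and the 2 intervals overlap. DLL4, a ligand of sprouting and arterial endothelium, was thinly sampled, with 7, 17 and 27 UMIs in the endothelial class (4.05, 10.56 and 5.08 CPM). Outside it, in classes of at least 50 cells, DLL4 had 1 UMI in germ cells at E85 and 2 UMIs in pregranulosa-gated cells, and none in the stroma. Set against a limit of 3 counts in the stroma, endothelial DLL4 was 4.07-fold, 22.8-fold and 16.2-fold higher, without the counting error of its own UMIs. At E85 and E105 it had under 20 UMIs over both sums and was not called. JAG1 was spread more widely: 117, 137 and 212 CPM in endothelial cells, 301, 366 and 533 CPM in mural cells, and 65.0, 50.8 and 38.5 CPM in the stroma. Its endothelial level was 1.81 times the stromal one at E85 (1.48 to 2.21), 2.70 times at E105 (2.27 to 3.21) and 5.49 times in the library labelled E125 (4.88 to 6.19), so the intervals of the 3 ratios did not overlap.

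The receptors split by class. NOTCH3, the receptor of vascular smooth muscle and pericytes, stood at 485 CPM (116 UMIs), 632 CPM (235 UMIs) and 1020.1 CPM (1118 UMIs) in mural-gated cells and at 78.3, 82.0 and 98.6 CPM in the stroma, which gave ratios of 6.20 (4.92 to 7.77), 7.71 (6.58 to 9.001) and 10.4 (9.48 to 11.3). In the mural cluster itself it was higher still, at 651, 895 and 1413 CPM. NOTCH2, a receptor with broad expression, stood at 28.2, 27.6 and 44.3 CPM in the stroma, at 29.3, 21.5 and 9.12 CPM in mural cells and at 15.8, 24.5 and 6.90 CPM in macrophage-gated cells. At E85 and E105 the intervals of these 3 classes overlap. Endothelial cells carried only 1, 3 and 9 of its UMIs. With so few molecules the endothelial level was 0.0205 (0.000514 to 0.117), 0.0674 (0.0138 to 0.2002) and 0.0382 (0.0174 to 0.0732) of the stromal one. NOTCH1, the main endothelial receptor of arterial specification, had 10, 12 and 50 UMIs in endothelial cells (5.78, 7.45 and 9.41 CPM). It did not pass 2-fold against the stroma at E85 (1.25, 0.495 to 3.02) or E105 (1.66, 0.773 to 3.36) but did in the library labelled E125 (8.16, 4.20 to 17.4), where the stromal level was 1.15 CPM against 4.64 and 4.48 CPM in the other libraries.

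Each target gene had its own pattern over the classes. HEY2 stood at 75.3, 48.4 and 187 CPM in mural cells against 1.66, 1.08 and 6.39 CPM in the stroma, and at 9.26, 8.69 and 14.9 CPM in endothelial cells. The mural ratios to stroma were 45.4 (16.2 to 156), 44.8 (17.8 to 127) and 29.3 (21.9 to 39.6). HEY1 was higher than stroma in both vascular classes, by 3.39-, 3.54- and 2.02-fold in endothelial and 5.19-, 9.05- and 2.81-fold in mural cells. In endothelial cells without a UMI of a mural marker the HEY1 ratio was below the 2-fold line in each library, at 1.67, 1.78 and 1.87. In the library labelled E125 the endothelial HEY1 ratio was also below it as a mean over cells (1.63) and without the top 6% of cells (1.85), and the mural one in cells without endothelial marker UMIs (1.89). Endothelial HEY2 had 5, 3 and 30 UMIs in cells without mural marker UMIs, too few for a call at E85 and E105, and in the library labelled E125 its ratio there was 1.85 and as a mean over cells 1.84. HEY1 was highest in germ cells at E85 (34.7 CPM, 29.1 to 41.1), with an interval that overlaps the mural one (11.8 to 60.3), and in oocyte-gated cells of the library labelled E125 (81.0 CPM). HEYL, a target with a known smooth muscle expression, was higher than stroma in the mural class at E105 (2.49, 1.28 to 4.47) and in the library labelled E125 (4.08, 2.05 to 7.76). At E85 the mural ratio of 2.19 (0.551 to 6.42) rested on 4 UMIs, none of them in cells without endothelial marker UMIs, and it was below 2 without the top 6% of cells (1.58) and as a mean over cells (1.999). In endothelial cells HEYL was lower than stroma at E85 (1 UMI) and E105 (4 UMIs). HES1, which many signals besides NOTCH switch on, was lower in endothelial than stromal cells at E85 (0.410, 0.199 to 0.780), did not pass 2-fold at E105 (0.543) and was higher in the library labelled E125 (2.92, 2.48 to 3.43).

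Counted as a list, 7 of 9 members with enough UMIs were past 2-fold between endothelial and stromal cells at E85, 7 of 9 at E105 and 9 of 10 in the library labelled E125, where 29.6%, 30.4% and 31.5% of all features tested were. Higher members numbered 3, 4 and 7 (11.2%, 11.6% and 14% of all features were higher) and lower ones 4, 3 and 2 (18.4%, 18.8% and 17.5%). In endothelial cells without mural marker UMIs, 5, 6 and 6 members were past 2-fold in either direction. HEY1 and HEY2 lost their calls there in each library, DLL4 lost its call in the library labelled E125, and HES1 gained a call at E105. Between mural and stromal cells 6 of 7, 5 of 8 and 7 of 8 were past 2-fold, beside 23.7%, 23.8% and 23.3% of all features, and 5, 5 and 6 of them were higher, beside 6.78%, 8.57% and 8.02% of all features. The median log2 ratio of the tested members to stroma was 0.34, 0.77 and 1.38 in endothelial cells, where the median over all features was -0.17, -0.14 and -0.04, and 2.22, 2.11 and 2.71 in mural cells, where it was -0.05, 0.01 and -0.08.

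**Figure D2:**
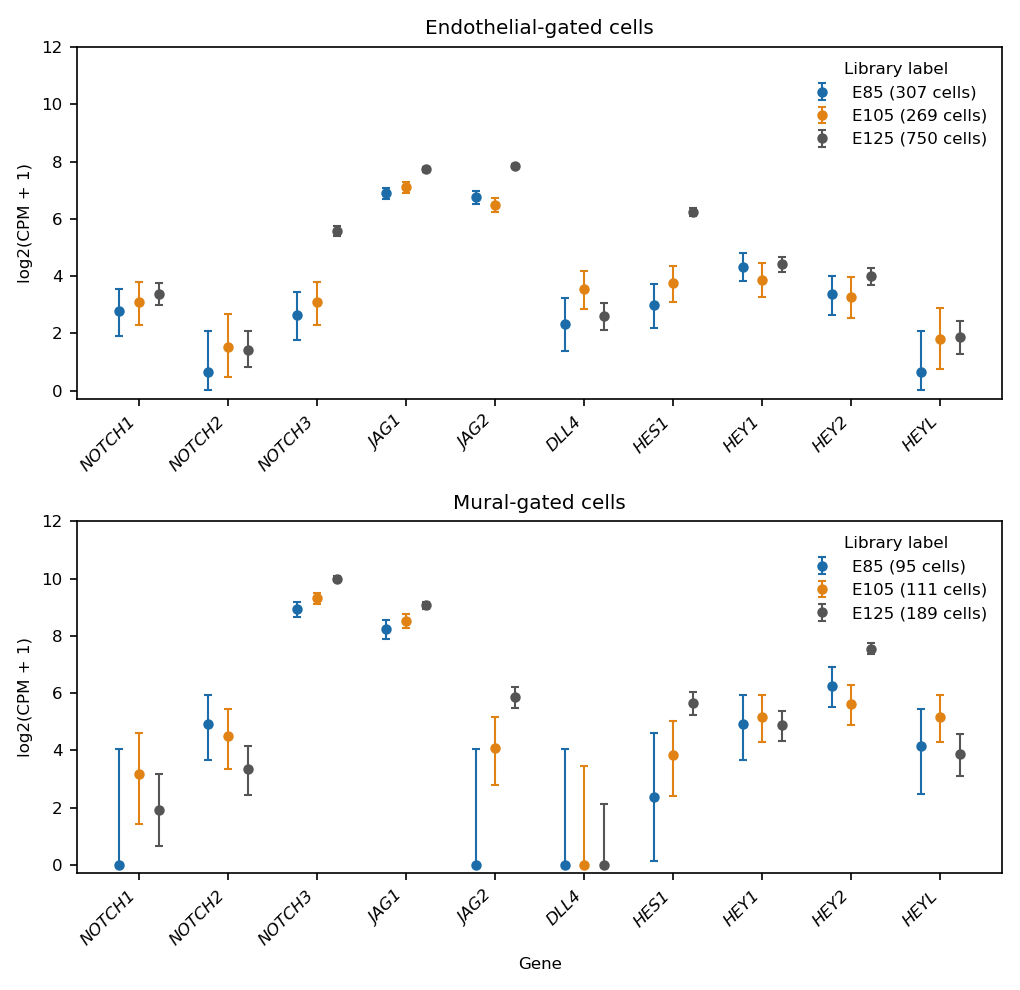
Levels of the 10 genes in endothelial-gated (upper) and mural-gated (lower) cells as log2(CPM + 1), with exact Poisson 95% intervals as bars and 1 point per library. NOTCH3, HES1 and JAG2 of the endothelial class stand higher in the library labelled E125 than in the other libraries, and DLL4 is at 0 in mural cells of all 3.

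Within the endothelium both Jagged ligands and HEY1 lay with the arterial markers. Cells were split by UMIs of arterial genes (GJA4, GJA5, SOX17, EFNB2, BMX, SEMA3G and CXCL12) or venous genes (NR2F2, EPHB4, ACKR1, NRP2, SELP and APLNR), and cells with both were set aside, which left 48 arterial-gated and 123 venous-gated cells at E85, 38 and 84 at E105, and 167 and 100 in the library labelled E125. The cells set aside numbered 97, 120 and 431. JAG2 was 401 CPM in arterial and 33.6 CPM in venous cells at E85, 285 against 25.2 CPM at E105, and 426 against 80.0 CPM in the library labelled E125. The ratios were 11.9 (7.31 to 20.2), 11.3 (5.66 to 25.1) and 5.33 (3.74 to 7.80), the same direction in each library. JAG1 was 406 against 55.0 CPM (7.38, 4.89 to 11.3) at E85 and 320.5 against 88.0 CPM (3.64, 2.34 to 5.74) at E105. In the library labelled E125 it was 317 against 189.7 CPM (1.67, 1.29 to 2.18), which did not reach 2-fold.

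Among the targets, HEY1 had 18 UMIs in arterial and none in venous cells at E85, 14 and none at E105, and 30 and 1 in the library labelled E125. Set against a limit of 3 counts in the venous cells, HEY1 was 21.5-fold and 11.0-fold higher in the first 2 libraries (the exact intervals start at 15.8 and 7.83). In the last it was 19.6-fold higher (3.26 to 801). HEY2 had 12 and 0, 7 and 0, and 20 and 6 UMIs. Its ratios were 14.4-fold and 5.50-fold against the same limit (the exact intervals start at 9.98 and 3.40) and 2.18-fold (0.845 to 6.64) in the last library. At E85 and E105 both genes had under 20 UMIs over the 2 gates and so were not called. HEY1 and HEY2 are the repressors known for blocking venous identity. Members called past 2-fold numbered 2 of 2 tested at E85, 2 of 2 at E105 and 3 of 5 in the library labelled E125, beside 16.3%, 14.1% and 7.91% of all features tested, and a gate of at least 2 marker UMIs made the same calls. DLL4 had 1 and 1, 4 and 5, and 5 and 3 UMIs, so its split between the gates was not detectable at this depth. HES1 in the library labelled E125, with 47 and 26 UMIs, stood at 70.3 and 59.4 CPM (1.18, 0.718 to 1.99).

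**Figure D3:**
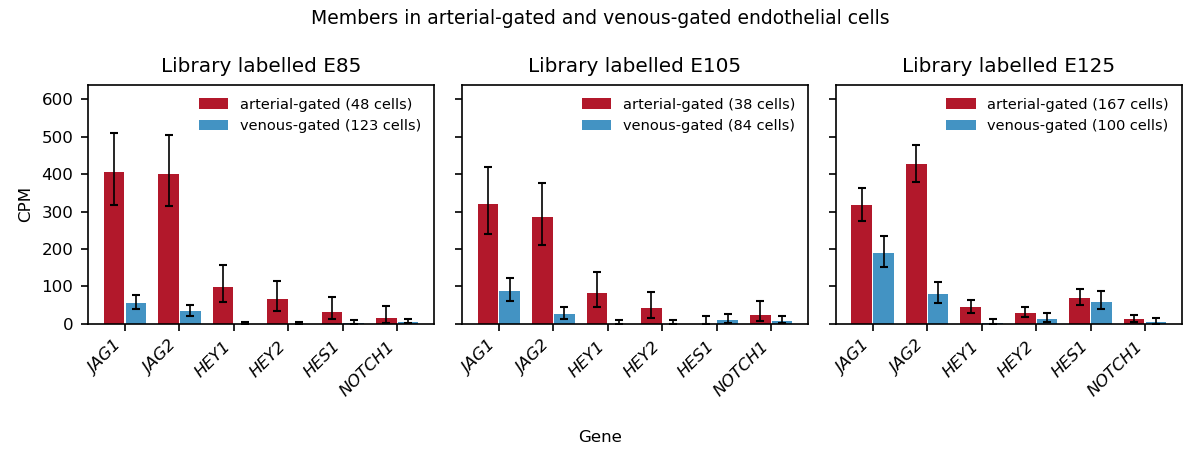
Summed levels in CPM of 6 members in arterial-gated (red) and venous-gated (blue) endothelial cells, 1 panel per library, with exact Poisson 95% intervals. JAG2 of arterial-gated cells stands above that of venous-gated cells in each of the 3 libraries, and HES1 bars overlap in the library labelled E125.

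The same genes met in single endothelial cells. Of cells with a HEY1 UMI, 14 of 15 at E85, 12 of 15 at E105 and 53 of 62 in the library labelled E125 also had a JAG2 UMI, while JAG2 was seen in 25.1%, 26.0% and 48.3% of all endothelial cells. Of cells with JAG2, 46 of 77, 30 of 70 and 218 of 362 also had JAG1. Deeper cells show more genes of any kind, so these shares are a description. Cluster 10, which spans the libraries, had JAG2 at 123, 99.3 and 1183 CPM and HEY1 at 23.7, 15.7 and 139 CPM. In the library labelled E125 its 69 cells stood well above the 656 cells of the CA4-led cluster 30, which had JAG2 at 218 and HEY1 at 19.9 CPM. A lymphatic-led cluster of 65 cells in that library had JAG2 at 18.6, JAG1 at 89.1 and HEY1 at 6.22 CPM.

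From E85 to E105 few endothelial members differed. JAG1 went from 117 to 137 CPM (ratio 1.17, 0.962 to 1.42) and JAG2 from 106 to 88.2 CPM (0.829, 0.661 to 1.04), and both intervals include 1. HES1 had 12 and then 20 UMIs (1.79, 0.833 to 4.01). DLL4, with 7 and then 17 UMIs, was the 1 of 8 tested members past 2-fold, at 2.61 (1.03 to 7.44), where 7.45% of all features were. As a mean over cells the DLL4 ratio was 1.89, below the line, and in cells without a UMI of a mural marker it had under 20 UMIs. The mean over cells called HEY2 in its place, at 0.478, where the ratio of sums was 0.939. The tested members had a median log2 ratio of 0.29 beside 0.10 over all features.

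Between the E105 library and that labelled E125, 4 of 8 tested endothelial members were past 2-fold, where 23.5% of all features were; most cells of the class came from different clusters in the 2 libraries, as given above. JAG2 was 2.60 times higher (2.19 to 3.12), HES1 5.998 times (3.83 to 9.93) and NOTCH3 6.24 times (3.51 to 12.2). HES1 had 396 UMIs against 20, and its level in the library labelled E125 was alike in cells without mural marker UMIs (77.0 CPM, 512 cells) and with them (72.2 CPM, 238 cells). NOTCH3 was not: it stood at 10.5 CPM without (27 UMIs) and at 79.8 CPM with mural marker UMIs. At E105 NOTCH3 stood at 1.28 CPM without (1 UMI) and at 13.3 CPM with them (11 UMIs). In cells without mural marker UMIs the NOTCH3 call between these libraries was kept, and HEY1 and HEY2 gained calls. The mural marker list summed to 124, 152 and 216 CPM in endothelial cells of the 3 libraries, with 3, 3 and 1 of its 10 genes at 0 and with RGS5 at 1.16, 1.86 and 3.76 CPM, and HIGD1B at 0, 0.621 and 49.7 CPM. In the E105 class, 7 of the 12 NOTCH3 UMIs lay in 1 cell. Against the stroma, endothelial NOTCH3 of the library labelled E125 was 0.471 (0.408 to 0.543) in gated cells and 1.27 times the stromal level where classes were taken from clusters, so its direction there rests on the way the class was drawn. DLL4 was lower, at 0.481 (0.253 to 0.941), a call lost under trimmed-mean scaling, in deeper cells and without mural marker UMIs. These comparisons share the E105 cells with the E85 ones.

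In mural-gated cells no tested member passed 2-fold from E85 to E105 (0 of 4, beside 9.77% of all features). NOTCH3 was 1.30 times higher (1.04 to 1.64), JAG1 1.21 (0.906 to 1.64), HEY1 1.19 (0.443 to 3.54) and HEY2 0.643 (0.316 to 1.31). The first of these intervals excludes 1 and the others include it. Between E105 and the library labelled E125, 4 of 7 were past 2-fold, beside 25.5%: HEY2 (3.87, 2.39 to 6.65), HES1 (3.67, 1.48 to 11.7) and JAG2 (3.51, 1.52 to 9.92) were higher and HEYL (0.392, 0.174 to 0.894) was lower. NOTCH3 (1.61, 1.40 to 1.87) and JAG1 (1.46, 1.21 to 1.77) were higher by less, and in the library labelled E125 up to 118 and 78 of their UMIs came from 1 cell. In the mural cluster HEY2 stood at 135, 82.1 and 269.5 CPM and HES1 at 5.61, 14.9 and 68.4 CPM, so both had the same order of the libraries there as in the gate. HEYL lost its call with classes from clusters and as a mean over cells.

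Mural JAG2 rested on a few cells. It had 0, 6 and 62 UMIs, found in 0, 2 and 8 cells, with up to 17 in 1 cell. In the library labelled E125 the 91 mural-gated cells without a UMI of an endothelial marker had none, which allows up to 10.4 CPM, and the 98 with one had 76.8 CPM. Without the top 6% of cells by UMIs, the JAG2 ratio to E105 was 0.674. The 15 endothelial markers measured summed to 435, 473 and 558 CPM in mural cells, with 8, 2 and 3 of them at 0 and with CDH5 at 4.18, 10.8 and 5.47 CPM. By contrast NOTCH3 and JAG1 were found in the mural cells without endothelial marker UMIs too, NOTCH3 at 396, 361 and 461 CPM and JAG1 at 236, 205 and 225 CPM, each lower than in the cells with them (556, 764 and 1220.0 CPM, and 353, 444 and 643 CPM). Mural HEY2 lay more with the cells that held endothelial marker UMIs: it was 47.1, 8.20 and 107 CPM without them (5, 1 and 31 UMIs) and 97.7, 68.0 and 216 CPM with them (13, 17 and 174 UMIs). Endothelial-gated cells had HEY2 at 9.26, 8.69 and 14.9 CPM. In the library labelled E125, mural HEY2 without endothelial marker UMIs was 16.9 times the stromal level. The part of endothelial RNA in the mural HEY2 level was not tested. Of mural cells with a HEY2 UMI, 12 of 13, 10 of 10 and 61 of 66 also had NOTCH3, which 56.8%, 62.2% and 71.4% of all mural cells had.

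**Figure D4:**
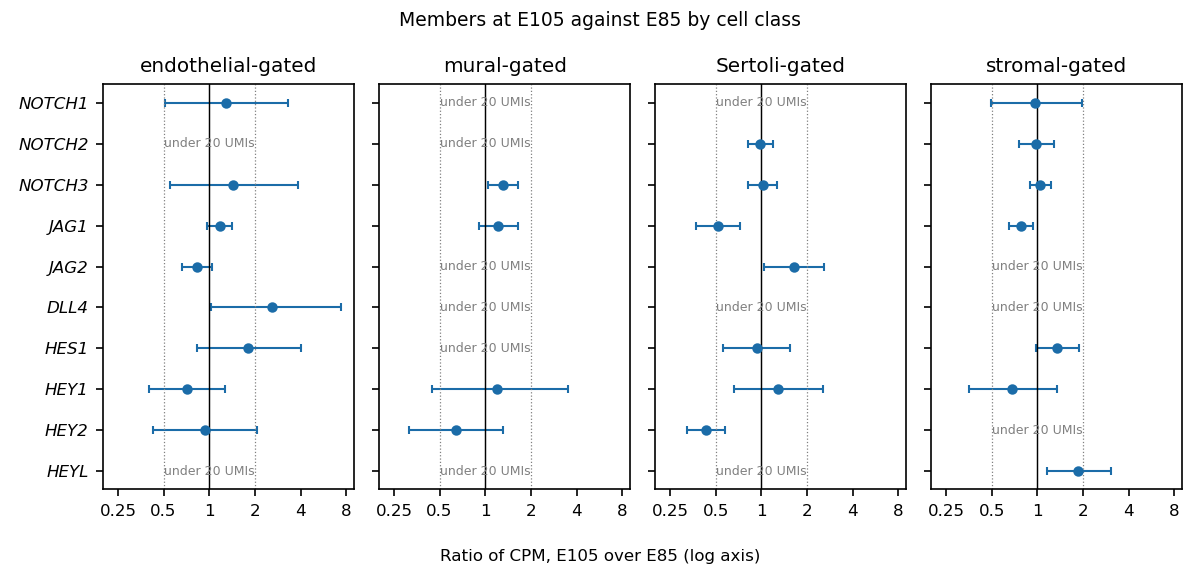
Ratios of summed CPM at E105 over E85 on a log axis for the 10 genes in endothelial-, mural-, Sertoli- and stromal-gated cells, with exact 95% counting intervals; dotted lines mark 0.5 and 2, and genes with under 20 UMIs over both sums are written as such. HEY2 of Sertoli-gated cells (0.434) lies below the lower line and DLL4 of endothelial-gated cells (2.61) above the upper one.

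The 10 members stood at low levels in Sertoli cells. With 26809643 and 20711554 UMIs at E85 and E105, the class had by far the largest UMI sums, and its levels are precise but low. NOTCH2 was 9.36 and 9.22 CPM (251 and 191 UMIs; 0.985, 0.812 to 1.19), NOTCH3 7.09 and 7.24 CPM (1.02, 0.819 to 1.27), and NOTCH1 had 2 and 3 UMIs. The intervals of both better sampled receptors include 1. The lymphoid-gated cells, taken as a class that should lack vascular NOTCH3 and JAG1, had 0 and 10.8 CPM of NOTCH2, 4.96 and 5.42 CPM of NOTCH3 and 4.96 and 4.33 CPM of JAG1. After every cell was thinned to 2000 UMIs, 1.42% and 1.23% of Sertoli cells had a NOTCH3 UMI and 0.894% and 0.818% a JAG1 UMI, against 2.70% (2 of 74) and 0.813% (1 of 123), and 1.35% (1 of 74) and 0.813%, of lymphoid cells. Unthinned, JAG1 was seen in 4.53% and 2.52% of Sertoli cells at median depths of 10407 and 10186 UMIs, and in 3.45% and 3.05% of lymphoid cells at 5754 and 6215 UMIs. For NOTCH2 the thinned shares were 1.67% and 1.79% of Sertoli cells, and 0% (0 of 74, which allows up to 4.05%) and 1.63% (2 of 123) of lymphoid cells. Sertoli JAG1, NOTCH3 and NOTCH2 thus lay within the counting error of the lymphoid shares. Those shares rest on 2 or fewer cells each and cannot tell low expression from background, so neither is read from them. Lymphoid cells were not chosen as a class that should lack NOTCH2. By level, Sertoli NOTCH2 at E85 (9.36 CPM) was above the 4.96 CPM that 0 lymphoid UMIs allow. At E105 it (9.22 CPM) was below the lymphoid level (10.8 CPM). Free RNA itself was not measured.

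HEY2, a target gene known from the heart and arteries, was past 2-fold in Sertoli cells both above the stroma and between stages. It stood at 7.12 CPM (191 UMIs) at E85 and 3.09 CPM (64 UMIs) at E105, and was 4.30 (1.81 to 13.4) and 2.86 times (1.31 to 7.40) the stromal level. Lymphoid cells had no HEY2 UMI, which allows up to 4.96 and 3.25 CPM. The Sertoli level was above this limit at E85 and below it at E105, so lymphoid cells alone cannot place the E105 level. The stroma at E105, with 6475996 UMIs against 923326 in lymphoid cells, had HEY2 at 1.08 CPM, below the 3.09 CPM of Sertoli cells. The part of free RNA in the Sertoli level was not tested. The E105 level was 0.434 of that at E85 (0.322 to 0.578), the only call among 7 tested members, where 7.76% of all features were called, and the alternatives gave 0.377 to 0.453. Thinned to 2000 UMIs, 1.30% of Sertoli cells had HEY2 at E85 and 0.664% at E105, against 6.91% and 2.97% unthinned. These thinned shares were lower than those of NOTCH2 and likewise cannot tell low expression from background. By cluster, HEY2 was 7.77 and 3.34 CPM in the largest Sertoli cluster, 5.88 and 3.57 CPM in that led by DNA replication genes, and 3.09 and 2.35 CPM in that led by mitotic genes, lower at E105 in each.

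The other ligands and targets had low levels in Sertoli cells. JAG1 was 4.81 and 2.51 CPM, with a ratio between stages of 0.522 (0.371 to 0.725), which passes 2-fold under trimmed-mean scaling (0.489). A small OTOS-led cluster of 102 and 97 cells stood apart within the gate, with JAG1 at 29.8 and 10.7 CPM and NOTCH3 at 27.3 and 28.5 CPM. JAG2 was 1.38 and 2.27 CPM (1.64, 1.05 to 2.60) and DLL4 had no UMI at either stage, which allows up to 0.112 and 0.145 CPM. HES1 was 1.49 and 1.40 CPM, HEY1 0.746 and 0.966 CPM and HEYL 0.336 and 0.290 CPM. Against the stroma, 7 of 8 and 8 of 9 tested members were past 2-fold, in a comparison where 49.4% and 46.7% of all features were past it. HEY2 was higher, and the other 6 and 7 were lower, as were 35.9% and 34.8% of all features. The median log2 ratio was -3.19 and -3.50 for the members and -0.66 and -0.64 for all features. Trimmed-mean scaling, which recentres the sums, raises every Sertoli to stromal ratio by 1.76 and 1.62 times, after which 2 members were higher (HEY2 and JAG2, the latter at 2.44 and 2.98) and 5 and 6 lower. Between E85 and E105 the members had a median log2 ratio of -0.02 beside 0.08.

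In the stroma itself 0 of 7 tested members passed 2-fold from E85 to E105, beside 8.26% of all features. The main cluster of the gate differed between these stages. It was cluster 3, led by CCN3 and CCL11, at E85 (905 of 1373 cells) and cluster 4, led by C7 and LUM, at E105 (1731 of 2677). The ratios to stroma given above rest on these cells too. JAG1 was at 0.782 of its E85 level (0.653 to 0.938) and the HEYL level was 1.84 times higher (1.16 to 3.05, 23 and 91 UMIs). With classes from clusters the HEYL ratio was 1.36. The part of the cluster make-up in these ratios was not tested. HES1 was 16.9 and then 22.9 CPM (1.35, 0.977 to 1.90). The stroma of the library labelled E125 came from other clusters, and they differed: the IGFBP3- and PENK-led cluster 19 had JAG1 at 69.0, HES1 at 41.4 and HEY2 at 14.4 CPM, while the COL12A1- and MGP-led cluster 32 had NOTCH2 at 53.7 and JAG1 at 29.8 CPM. An unnamed cluster of that library, led by ERICH3 and CITED1 (290 cells), had HEY2 at 108, HES1 at 78.0 and NOTCH3 at 70.3 CPM.

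Germ cells carried both Jagged ligands at levels far above those of Sertoli cells. JAG1 stood at 68.7 and 86.5 CPM in germ-gated cells at E85 and E105, and JAG2 at 51.6 and 97.4 CPM. The ratios to Sertoli cells were 14.3 (11.53 to 17.7) and 34.4 (24.7 to 48.5) for JAG1, and 37.4 (26.2 to 54.6) and 42.9 (30.7 to 61.1) for JAG2. Thinned to 2000 UMIs, 12.6% and 20% of germ cells had JAG1, above the lymphoid shares given, and 14.1% and 15.7% had JAG2. By level, lymphoid JAG2 stood at 0 CPM at E85, with the same limit as given for HEY2, and at 2.17 CPM at E105. The targets were higher too: HEY1 at 34.7 and 26.1 CPM (46.6, 29.0 to 78.6, and 27.0, 15.3 to 49.0) and HES1 at 8.68 and 11.0 CPM (5.82, 3.57 to 9.43, and 7.84, 3.98 to 14.9). NOTCH2 was the reverse, at 5.11 and 4.12 CPM, with ratios of 0.545 (0.328 to 0.861) and 0.446 (0.162 to 0.990). HEY2 was 2.01 times the Sertoli level at E85 (1.46 to 2.72) and 7.995 times at E105 (5.16 to 12.2), and under trimmed-mean scaling the E85 ratio was 0.878. Of tested members 6 of 8 and 6 of 7 were past 2-fold, where 62.1% and 64.9% of all features were, so a call here is common. Higher and lower members numbered 6 and 0, and 5 and 1, and 5 and 1 in both libraries under trimmed-mean scaling, which multiplies these ratios by 0.437 and 0.391. The median log2 ratio before that scaling was 3.19 and 3.01 for the tested members and 0.90 and 1.00 for all features. Most features were thus higher in germ cells, and the share of all features past 2-fold in each direction was not counted.

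From E85 to E105, 1 of 8 tested germ cell members was past 2-fold, HEYL with 23 and 4 UMIs (0.467, 0.117 to 1.37), beside 8.99% of all features. The HEYL call was lost as a mean over cells (0.808) and without the top 6% of cells (0.599). JAG2 was 1.89 times higher (1.51 to 2.35), HEY2 1.73 (1.10 to 2.67) and JAG1 1.26 (1.01 to 1.56), each with an interval above 1. Trimmed-mean scaling multiplies these ratios by 0.836, after which JAG2 was 1.58 (1.27 to 1.97), HEY2 1.44 (0.923 to 2.24) and JAG1 1.05 (0.845 to 1.31), and the last 2 intervals include 1. HEY1 was 0.751 (0.510 to 1.08). These ratios sit in a class whose all-feature median log2 ratio was 0.22, while that of the tested members was 0.33.

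In the library labelled E125, oocyte-gated cells had JAG1 at 228 CPM (1768 UMIs) and HEY1 at 81.0 CPM (628 UMIs), against 11.7 and 4.06 CPM in pregranulosa-gated cells. The ratios were 19.6 (15.8 to 24.5) and 19.96 (13.9 to 29.6). JAG2 (4.98, 3.50 to 7.25), HEYL (4.33, 2.85 to 6.78), HES1 (2.86, 2.32 to 3.54) and HEY2 (2.74, 2.34 to 3.22) were also higher in oocyte-gated cells. The receptors went the other way: NOTCH2 was 1.68 against 14.5 CPM (0.115, 0.0596 to 0.205) and NOTCH3 25.9 against 37.5 CPM (0.692, 0.575 to 0.832). In the ovary, JAG1 of oocytes and NOTCH2 of granulosa cells are a known signalling pair. Members past 2-fold numbered 7 of 8, where 61.5% of all features were. The oocyte-gated cells were deep, with a median of 81788.5 UMIs, and 39 of 88 oocyte-gated and 233 of 466 pregranulosa-gated cells carried exactly the 3 required markers. The leading genes of the pregranulosa gate held 4 of its own markers and 3 of other classes.

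**Figure D5:**
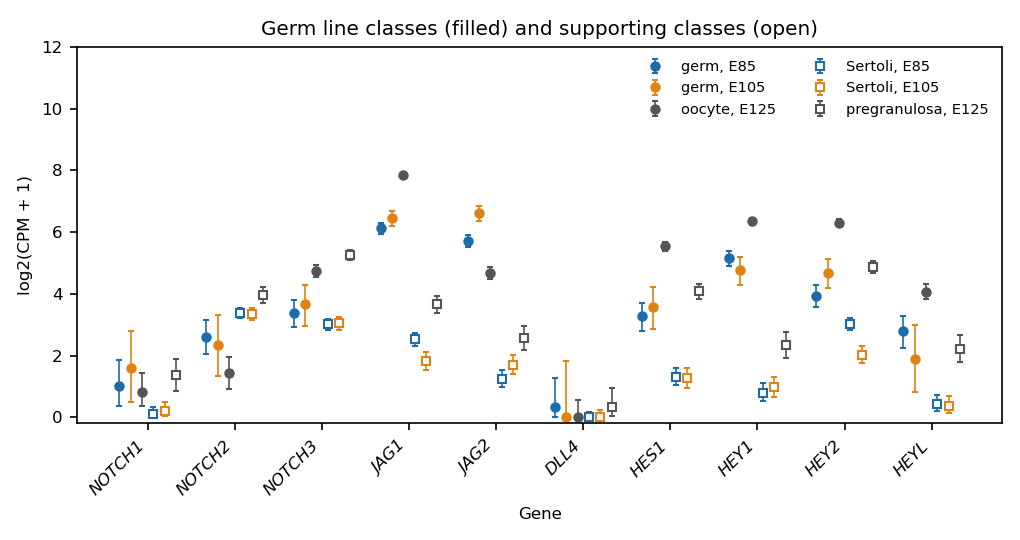
Levels of the 10 genes as log2(CPM + 1) with exact Poisson 95% intervals in germ line classes (filled: germ-gated at E85 and E105, oocyte-gated in the library labelled E125) and supporting classes (open: Sertoli-gated at E85 and E105, pregranulosa-gated in the library labelled E125). JAG1, JAG2 and HEY1 stand higher in the germ line class than in the supporting class of each library, and NOTCH2 lower.

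Beyond the 10 members, 42 further pathway genes of a list of 47 had a symbol in the files. In endothelial against stromal cells, 5 were higher and 4 lower of 26 tested at E85, 5 and 7 of 30 at E105, and 7 and 7 of 31 in the library labelled E125, or 34.6%, 40% and 45.2% past 2-fold beside 29.6%, 30.4% and 31.5% of all features. The ligand gene DLL1 (ratios 39.5, 17.7 and 48.4), the endothelial receptor gene NOTCH4 (13.4, 24.1 and 30.4) and the repressor BHLHE41 (7.73, 29.5 and 5.33) were among the higher. DLK1, a non-canonical ligand, was at 0.0175, 0.0354 and 0.0410 of the stromal level. In mural against stromal cells, 2, 3 and 3 were higher and 1, 3 and 2 lower, of 21, 27 and 30 (14.3%, 22.2% and 16.7%, beside 23.7%, 23.8% and 23.3%). In Sertoli against stromal cells 3 were higher and 10 lower of 32 in both libraries (40.6%, beside 49.4% and 46.7%), with DLL1 higher (6.75 and 2.70) and DLK1 (0.0103 and 0.0107) and NUMBL, a member of the family of NOTCH inhibitors (0.101 and 0.105), lower. In germ against Sertoli cells 18 and 20 of 33 were higher and 4 and 3 lower (66.7% and 69.7%, beside 62.1% and 64.9%), with DLL3, a ligand that acts inside its own cell, at 60.2 and 180 times the Sertoli level. In oocyte-gated against pregranulosa-gated cells 13 of 31 were higher, DLL3 among them (49.8), and 6 lower (61.3%, beside 61.5%).

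Between E85 and E105 the wider list gave 0 to 3 calls per class, or 12.5% of those tested in endothelial, 3.12% in Sertoli, 0% in mural, 7.14% in stromal and 11.5% in germ cells, beside 7.45%, 7.76%, 9.77%, 8.26% and 8.99% of all features. In endothelial cells 2 of 24 were higher, DLK1 (2.40) and NOTCH4 (2.24), and 1 was lower, DTX2 (0.474). In Sertoli cells 1 of 32 was higher, the ligand-handling ubiquitin ligase gene MIB1 (2.18), and none lower. The mural class had no call among 13, the stroma had 2 higher of 28 (FBXW7 at 2.87 and DLL1 at 2.64), and germ cells had 3 higher of 26, among them DLL3 (2.32) and MIB1 (2.24). Between E105 and the library labelled E125, 7 endothelial genes were higher and 1 lower of 27 (29.6%, beside 23.5%), the lower being DLK1 (0.0322), and in mural cells 4 were higher and 4 lower of 19 (42.1%, beside 25.5%), with DLK1 at 0.0373.

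Over the 21 sums of a class in a library, the genes whose log2(CPM + 1) was most like that of a member by Pearson's r were MECOM (0.93), GATA2 (0.91) and RASIP1 (0.91) for JAG2, and DAPK3 (0.93), CABP1 (0.91) and CNKSR2 (0.89) for JAG1. For NOTCH3 they were STOM (0.90), TAGLN (0.89) and C1QTNF7 (0.88), for HEY2 EFHD1 (0.87), ADIRF (0.86) and DAPK3 (0.84), and for HEY1 FAM81A (0.93), HOXC9 (0.90) and TMEM63B (0.89). The search ran over 10086 genes, and the sums share libraries and depth, so these values describe likeness in these classes only.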

How the data were processed

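The deposited matrices hold whole-number UMI counts per gene and barcode, produced by the authors with Cell Ranger (the submitters' processing notes give 3.1 and the file headers 6.0.0). The build is not given in the sources used here. Barcodes with at least 1000 UMIs, 500 genes and at most 20% UMIs of 13 mitochondrial genes were kept. Cells were gated on at least 3 markers and a marker score of at least 0.3. Cells gated as 2 classes (87, 120 and 261) were set aside as mixed, and no doublet caller was run. Clusters (35) came from scanpy 1.11.5 with 3000 variable genes, 30 components and resolution 1. UMIs were summed per class and library, and classes under 50 cells were left out. There is 1 library per stage, so no test was made. The members, gene lists and comparisons were chosen with earlier results of these data known, and the germ and oocyte comparisons after their values were seen. All 10 members are named, with up to 6 genes of the wider list per comparison, those past 2-fold whose interval bound lay farthest from 1, and 3 most alike genes per member. Alternatives were classes from clusters, stricter filters and gates, trimmed-mean scaling (edgeR 4.0.16), the mean over cells, no UMI minimum and the top 6% of cells removed; those without marker UMIs of the other vascular class were added after seeing the data. Limits at 0 are 3 counts. An item of the wider list is not reported here by name. Scripts were tested on simulated data.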

Additional observations from a re-analysis of the deposited data

Results flagged for a closer look

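Ratios of E105 over E85 lay on different sides of 1 in different classes, each with a counting interval that excludes 1 without rescaling, for JAG1 and HEY2. JAG1 was 1.26 in germ-gated cells, 0.522 in Sertoli-gated and 0.782 in stromal-gated cells. HEY2 was 1.73 in germ-gated and 0.434 in Sertoli-gated cells. Over the class as a whole, Sertoli JAG1 could not be told from the lymphoid shares and is not read as expression. The OTOS-led cluster within the gate, given above, had a higher JAG1 level than the class at both stages. Sertoli HEY2 at E105 (3.09 CPM) lay below the limit that lymphoid cells allow, though above the stromal level of that library (1.08 CPM). Both Sertoli ratios are therefore given as values only. Under trimmed-mean scaling the germ ratios were 1.05 (0.845 to 1.31) for JAG1 and 1.44 (0.923 to 2.24) for HEY2, and both intervals then include 1. With 1 library per stage the difference between classes was not tested.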

How the results depend on the processing

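No paired analysis was possible because each stage has 1 library, and no library could be left out in turn for the same reason. Counts of members past 2-fold stayed within 1.5 times the main count in 122 of the alternatives run and moved in 9. A count that stayed can hold other members. Between E85 and E105 the endothelial mean over cells called HEY2 in place of DLL4. For E105 against E85 in endothelial cells, where the main count was 1, it was 2 with classes from clusters, 3 with no minimum of UMIs and 0 in cells without mural marker UMIs. In Sertoli cells it went from 1 to 2 under trimmed-mean scaling, and in mural cells from 0 to 4 with no minimum and to 1 with the top 6% of cells removed. In germ cells it went from 1 to 0 as a mean over cells, to 3 with no minimum and to 0 with the top 6% removed. Of log2 ratios, 928 stayed inside the counting interval of the main ratio, 73 left it, and 5 of members called past 2-fold reversed direction. A ratio inside its interval can still cross 1 or the 2-fold line. The reversed log2 ratios were those of mural JAG2, with the top 6% removed (-0.57 against E105 and -0.25 against stroma) and without endothelial marker UMIs (-1.18 against stroma), endothelial NOTCH3 against stroma with classes from clusters (0.35), and HEY2 in germ against Sertoli cells at E85 under trimmed-mean scaling (-0.18). The cause was not tested. Trimmed-mean scaling multiplied the ratios by 0.836 (germ cells, E105 against E85) to 1.18 (mural cells, the library labelled E125 against E105) outside the Sertoli comparisons with other classes. Stricter gates or filters that left under 50 cells in a class were not run for mural (42 to 48 cells), germ (48) and oocyte (49) comparisons. Depth limits DLL4, NOTCH1 and HEYL.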
